A study of Mus musculus with 13 samples.

Results

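The experiment described here set normal mouse mammary organoids grown in collagen I against organoids of the same kind grown in Matrigel. Its members are the 6 arrays of normal epithelium hybridised in batch 2, 3 in each gel, of 14 arrays in the series. They were taken by the gel and tissue given in the labels, by the batch read from the array names, and by no signal on the arrays. The 14 arrays belong to 13 GEO samples, because the RNA of Matrigel mouse B was hybridised once in each batch under 1 sample. Its batch 2 array is the one whose name has the form shared by the other batch 2 arrays, and it lies on a slide with collagen I mouse C. The organoids were multicellular epithelial fragments, freed from mammary glands with collagenase and trypsin and parted from lone cells by centrifugation. The collagen I group held wild-type FVB mice A, B and C, embedded in a gel of 3 mg/ml rat-tail collagen I. The Matrigel group held wild-type FVB mice A, B and D, and FVB is an inbred white mouse strain. Mice A and B therefore stand in both gels, and mice C and D in 1 gel each. For the normal mice the sources used here give no age. Where the gel effect was set against that in tumors, the tumor arrays held organoids of MMTV-PyMT mice A, B and C in collagen I and in Matrigel. In these mice a mammary tumor virus promoter drives the polyoma middle T oncogene in mammary epithelium, and tumors were taken at 12 to 16 weeks of age. The tumor used was the largest of each mouse. All groups shared organoid medium with 2.5 nM FGF2, a growth factor, and were collected at day 4. The comparison asks which transcripts of normal epithelium depend on the matrix around it.

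Collagen I is the main fibrillar collagen of connective tissue, and epithelial cells meet it when the basement membrane is thinned or breached. It is bound by a small set of integrins and by the discoidin domain receptors. Matrigel is a laminin-rich basement membrane extract, which is bound by other integrins and by dystroglycan. Mammary epithelium has an inner luminal layer and an outer basal or myoepithelial layer, and in the gland the basal layer lies on the basement membrane.

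Values are log2 processed signals relative to the 75th percentile of their own array, so that 0 is the level of that percentile and -2 lies 2 log2 units below it. They are given for collagen I mice A, B and C and then for Matrigel mice A, B and D, always in that order. A difference is collagen I minus Matrigel in log2 units, and the value after ± is its standard error from limma. Probes differ in their brightness, so a level is compared only with the same probe on another array. The number of arrays, 3 in each gel, limits the precision. An exact permutation test of 3 arrays against 3 cannot give a p under 0.10, so tests are limma's, adjusted over 18274 genes by Benjamini-Hochberg.

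Of the 18274 genes tested, 16789 were well above background on all 6 arrays. All 14 luminal and all 12 basal and myoepithelial markers tested were among them. Most genes tested were, so this could not check the label of mammary epithelium. The same holds for the markers of other cells below. The summed signal of the luminal markers, in multiples of the 75th percentile, was 679 to 806 in collagen I and 700 to 964 in Matrigel. That of the basal markers was 345 to 364 in collagen I and 192 to 593 in Matrigel. The fibroblast markers, all 10 well above background, summed to 31.4 to 75.5 in collagen I and 19.6 to 128 in Matrigel, with the highest sum in Matrigel mouse D. The 10 endothelial markers, all but Tek well above background throughout, summed to 6.39 to 12.3 in collagen I and 10.4 to 15.3 in Matrigel. The collagen I arrays were closer to each other (median SD over genes of 0.184) than the Matrigel arrays (0.265). Over genes well above background on all 6 arrays, Matrigel mouse A differed from Matrigel mice B and D by medians of 0.294 and 0.386. Matrigel mice B and D differed by 0.196, and the collagen I arrays by 0.151 to 0.249. The 75th percentile signal was 671 for Matrigel mouse A and 971 to 1216 for the other normal arrays. The part of this signal in the spread was not tested. In bulk RNA, more cells of a type and more RNA per cell cannot be told apart.

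In the main comparison few single genes passed the test. In collagen I 7 genes were higher (0.0383% of those tested) and 1 was lower (0.00547%), which makes 8 in all (0.0438%). Without Matrigel mouse A, B or D the count was 15, 4 or 18, and without collagen I mouse B it was 4. The spread was estimated with the tumor arrays, and without tumor Matrigel mouse C or tumor collagen I mouse B the count was 23 or 13. Array quality weights gave 1686 genes (974 higher, 712 lower) and normexp background correction with quantile normalization 87 (60 higher, 27 lower). The quality weights were 3.73 for Matrigel mouse B and 3.84 for collagen I mouse B. They were 0.42 to 1.88 for the other normal arrays, so that fit leaned on mouse B in both gels. With the mouse as a random replicate block 71 genes passed, and with the mouse or the slide as a fixed block 0 passed, with 1659 and 1874 genes at an unadjusted p under 0.05 (limma). At an unadjusted p under 0.05, 1658 genes (9.07%) differed in the main comparison, 1057 of them higher (5.78%) and 601 lower (3.29%).

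Foxj1, the transcription factor that switches on motile cilia genes, read -0.60, -0.14 and -1.34 in collagen I, against -4.41, -3.70 and -3.80 in Matrigel. The lowest collagen I value lay far above the highest Matrigel value, and Foxj1 rose by 3.28 ± 0.35 (adjusted p = 0.00798). Nr4a2, an orphan nuclear receptor made within minutes to hours of many stimuli, read -0.49, 0.03 and 0.36 in collagen I, against -1.86, -1.65 and -2.10 in Matrigel. It rose by 1.84 ± 0.23 (adjusted p = 0.0177), again with no overlap. Mme, the surface peptidase neprilysin that myoepithelial cells carry, read -1.22, -1.25 and -1.68 in collagen I, against -3.40, -3.38 and -3.07 in Matrigel. The spread within each gel was a small part of the rise of 1.90 ± 0.21 (adjusted p = 0.0105), and its other probe gave a difference of 1.73. Irg1, now named Acod1, encodes the enzyme that makes itaconate in activated macrophages. It read -2.15, -1.91 and -2.94 in collagen I, against -4.61, -5.05 and -5.45 in Matrigel, a rise of 2.70 ± 0.33 (adjusted p = 0.0172), and its other probe gave 3.84. Leukocyte markers stood higher in collagen I on the same arrays (14 of 16 with no overlap, against 11.5% of all genes, summing to 96.2 to 113 in collagen I and 37.2 to 58.5 in Matrigel), and their part in the rise of Irg1 was not tested.

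**Figure D1:**
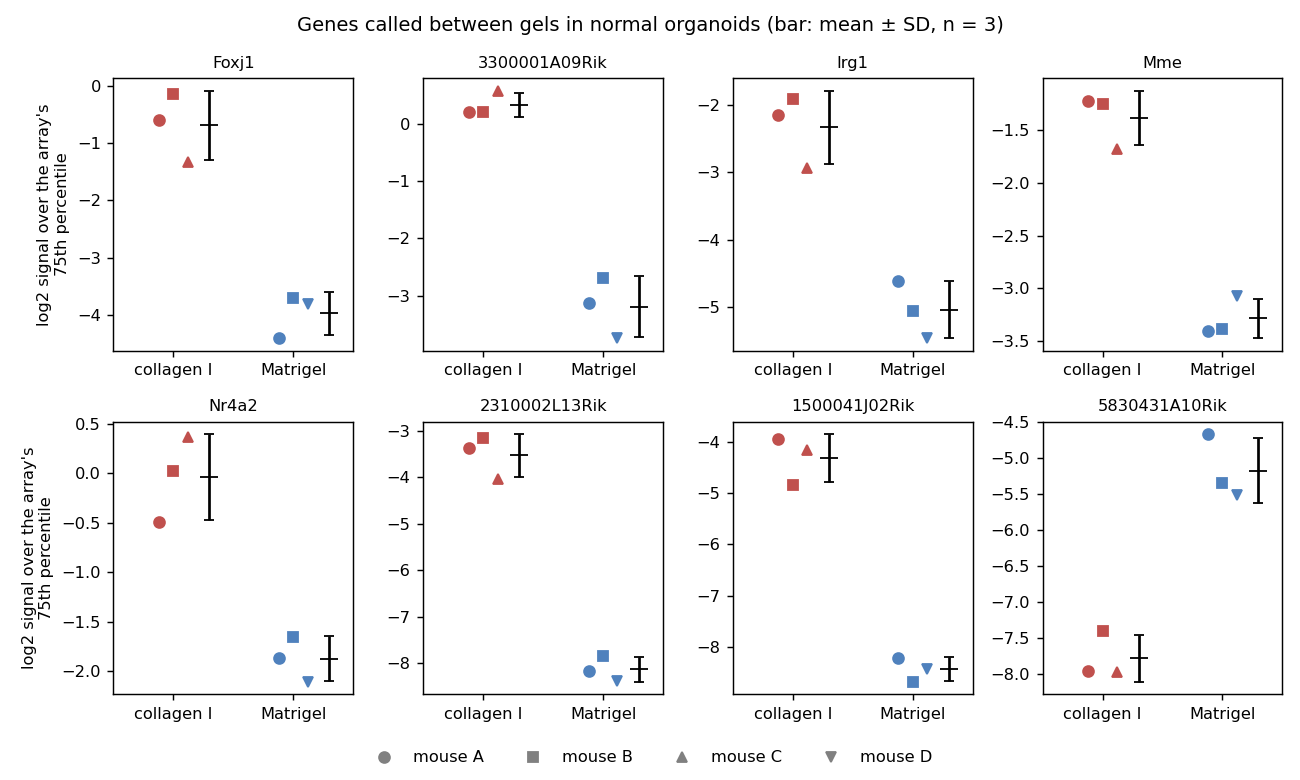
Log2 signal over the array's 75th percentile for the 8 genes past the threshold, with collagen I on the left and Matrigel on the right of each panel; symbols mark mice and bars the mean ± SD of 3 arrays. In each panel the groups do not overlap, and 5830431A10Rik alone is lower in collagen I.

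The other 4 carry names of cDNA clones. The probe of 3300001A09Rik, a name that RefSeq gives as a synonym of C2cd4b, read 0.20, 0.21 and 0.57 in collagen I, against -3.13, -2.69 and -3.74 in Matrigel. Its rise was 3.51 ± 0.43 (adjusted p = 0.0172). The probe of 2310002L13Rik, a synonym of Dynap, read -3.38, -3.16 and -4.04 in collagen I, against -8.16, -7.84 and -8.38 in Matrigel. It was well above background on the 3 collagen I arrays and not well above it on any Matrigel array, so it was at least 6.07-fold higher in collagen I (adjusted p = 0.0065). Such bounds set the brighter group's mean against the lowest signal that counted as well above background on the dim arrays. The adjusted p beside a bound, here and below, is limma's for the fitted difference and does not test the bound. The probe of 1500041J02Rik read -3.95, -4.84 and -4.16 in collagen I, against -8.21, -8.67 and -8.42 in Matrigel, also not well above background in Matrigel, and was at least 3.51-fold higher in collagen I (adjusted p = 0.00493). RefSeq lists that name under Coq10b, but the RefSeq-matched probe of Coq10b, a gene of coenzyme Q function, differed by 0.51 ± 0.19 (adjusted p = 0.425). The probe of 5830431A10Rik, a synonym of the pseudogene Gm11346, read -7.95, -7.40 and -7.97 in collagen I, against -4.66, -5.34 and -5.51 in Matrigel. Its signal stood well above background in Matrigel alone, which makes it at least 2.14-fold lower in collagen I (adjusted p = 0.00798).

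On slides 3 and 6, which each hold an array of both gels, the 8 genes kept their direction. Foxj1 differed by 3.20 between collagen I mouse A and Matrigel mouse D on slide 3 and by 2.37 between collagen I mouse C and Matrigel mouse B on slide 6. For Mme these differences were 1.84 and 1.70, for Nr4a2 1.61 and 2.02, and for Irg1 3.30 and 2.11. Within mice A and B, which gave organoids to both gels, Foxj1 was higher in collagen I by 3.81 and 3.56, and Mme by 2.18 and 2.13. The batch 1 arrays of Matrigel mice A and B read -2.69 and -3.68 for Foxj1 and -2.53 and -3.26 for Mme, below every collagen I array. Irg1, Mme and 3300001A09Rik each lost the call without Matrigel mouse B and without collagen I mouse A or B, 3300001A09Rik also without collagen I mouse C, and Nr4a2 lost it without any of the Matrigel mice and without collagen I mouse B or C (limma adjusted p = 0.0507 to 0.136). Foxj1 and the remaining 3 genes kept theirs with any 1 array left out. Over all the processing alternatives, the fitted difference was 0.90 to 4.86 for 2310002L13Rik and 0.51 to 4.39 for 1500041J02Rik. The range of 1500041J02Rik includes an alternative with names updated through RefSeq synonyms. There that name took the probe of Coq10b (0.51). For 5830431A10Rik it was -2.79 to -0.32. The adjusted p (limma) of these clone probes reached 0.58, 0.984 and 0.997, in that order.

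Ranked by size alone, the comparison held much more than these 8 genes. Of the 18274 genes, 671 (3.67%) were over 2-fold higher in collagen I and 354 (1.94%) over 2-fold lower. The 3 arrays of collagen I lay wholly above those of Matrigel for 2106 genes (11.5%) and wholly below for 1829 (10%). Among the 10 genes with the largest differences, 9 were higher in collagen I, 10 had groups that did not overlap, and 3 passed the adjusted threshold. Among the 100 largest, 67 were higher, 90 did not overlap, 89 had an unadjusted p under 0.05 and 6 passed. The 200 largest, all of at least 1.82 log2 units, held all 8 genes past the threshold, and 137 of the 200 were higher. Their median standard error was 0.629, against 0.271 over all genes, so the largest differences were measured less precisely than most. Only 88 of these 200 were well above background on all 6 arrays, and 37 on the arrays of 1 gel alone.

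**Figure D2:**
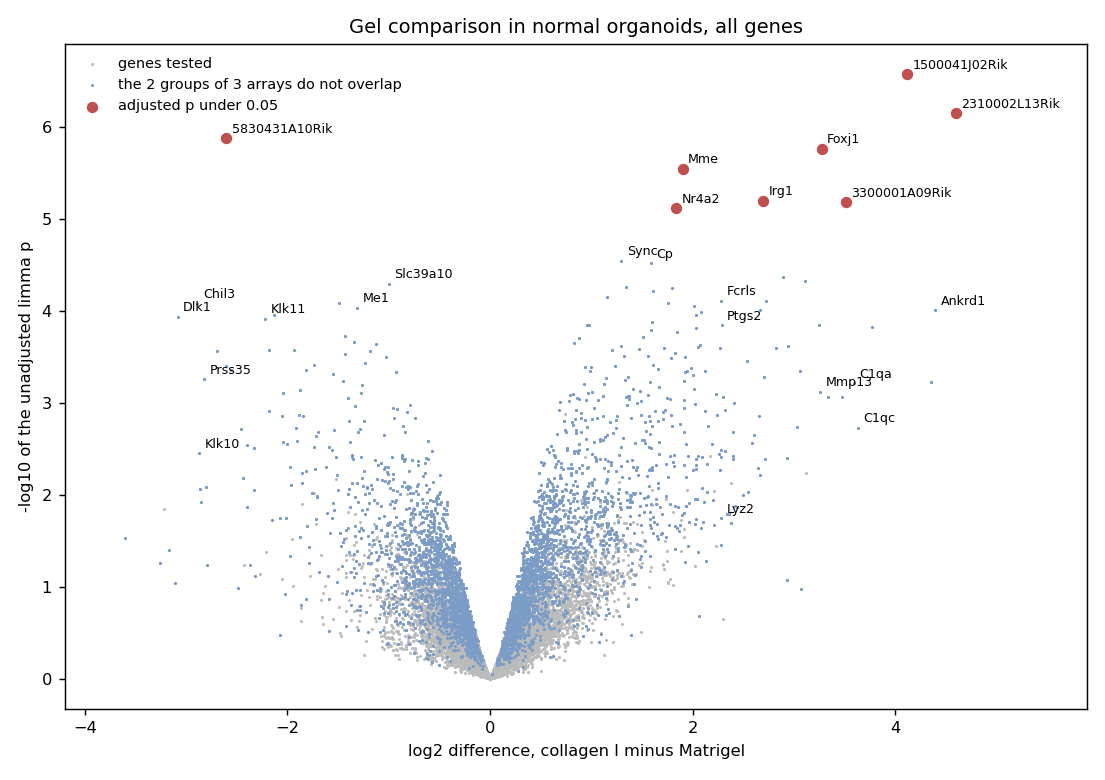
Log2 difference of collagen I minus Matrigel (horizontal) against -log10 of the unadjusted limma p (vertical) for 18274 genes; blue points mark groups that do not overlap and red points an adjusted p under 0.05. Of the 8 red points 7 lie to the right, and most of the largest differences lie well below them.

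The largest difference among genes with a plain symbol was that of Ankrd1, a muscle and wound protein whose gene is a standard target of YAP. It read 0.19, 0.04 and -1.47 in collagen I, against -6.59, -4.70 and -3.14 in Matrigel, and was well above background on 2 of the 3 Matrigel arrays. The groups did not overlap, yet the Matrigel arrays spanned over 3 log2 units, and the difference of 4.40 ± 0.73 missed the threshold (adjusted p = 0.0701).

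Of the 15 largest higher genes with a plain symbol, signal on all 6 arrays and no overlap, 10 are genes of macrophages and other leukocytes. They are C1qc and C1qa, chains of complement C1q, Ms4a7, the adaptor Tyrobp, Mpeg1, the lysozymes Lyz1 and Lyz2, the protease Ctss, the Fc receptor-like Fcrls and the survival gene Bcl2a1b. C1qc read -0.21, -0.20 and 0.60 in collagen I, against -2.24, -6.07 and -2.42 in Matrigel, a difference of 3.64 ± 0.89 (adjusted p = 0.18). Lyz2 read 5.27, 5.31 and 5.88 in collagen I, against 3.91, 0.95 and 4.76 in Matrigel, a difference of 2.28 ± 0.82 (adjusted p = 0.42). The 3 collagen I arrays were close together for both genes, while Matrigel mouse B stood far below Matrigel mice A and D. Matrigel mouse B was the lowest array for all 10. The gap was small only for Fcrls, which read -3.06, -2.58 and -1.79 in collagen I, against -4.49, -5.04 and -4.75 in Matrigel. The batch 1 arrays of Matrigel read -2.60 and -5.84 for C1qc in mice A and B and 3.14 and 1.07 for Lyz2, so mouse B was the lower there too. Over the 16789 genes well above background on all 6 arrays, differences between these mice repeated poorly. Mouse A minus mouse B in batch 1 correlated with the same difference in batch 2 at 0.093.

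Among the leukocyte genes above, C1qa, C1qc, Tyrobp and Lyz2 are on the list of leukocyte markers, and the rest are not. The other 5 of these 15 were not counted as leukocyte genes. Mmp13, a collagenase that cuts fibrillar collagen, read -0.37, 0.93 and 0.94 in collagen I, against -2.24, -3.69 and -2.36 in Matrigel, a difference of 3.26 ± 0.70 (adjusted p = 0.132). Sftpd, a collectin of epithelial surfaces, read -1.50, -1.75 and -2.85 in collagen I, against -4.73, -4.79 and -5.05 in Matrigel, and differed by 2.82 ± 0.53 (adjusted p = 0.0857). Collagen I arrays of these genes all lay at least 1 log2 unit over the highest Matrigel array. Ptgs2, the inducible enzyme of prostaglandin synthesis, read -1.22, -1.40 and -1.72 in collagen I, against -4.11, -3.16 and -3.94 in Matrigel, with a difference of 2.29 ± 0.40 (adjusted p = 0.0738) and of 2.20 by its other probe. Lef1, a transcription factor through which Wnt signals act, read 0.80, 0.77 and 0.70 in collagen I, against -0.72, -2.02 and -1.81 in Matrigel and differed by 2.28 ± 0.43 (adjusted p = 0.0857). Krt75, a keratin of the hair follicle's companion layer, differed by 2.61 ± 0.65 (adjusted p = 0.194). None of the 15 passed the threshold.

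Next come the 15 largest lower genes chosen by the same rule. Dlk1, a Notch-related surface protein of preadipocytes and other progenitors, read -5.70, -5.01 and -4.69 in collagen I, against -1.91, -2.45 and -1.78 in Matrigel. The collagen I arrays all lay over 2 log2 units under the lowest Matrigel array, and the difference was -3.09 ± 0.52 (adjusted p = 0.0707). Chil3, a secreted chitinase-like lectin, read -0.36, 0.42 and 0.56 in collagen I, against 2.98, 3.26 and 3.05 in Matrigel, a difference of -2.89 ± 0.47 (adjusted p = 0.0701), opposite in direction to the macrophage genes with which it is often listed. Ica1l read -1.31, -0.64 and -0.51 in collagen I, against 1.81, 1.93 and 1.89 in Matrigel and differed by -2.69 ± 0.51 (adjusted p = 0.0857). Cdkn1c, the cell cycle inhibitor p57, read -2.28, -2.28 and -2.09 in collagen I, against -0.41, -0.27 and 0.19 in Matrigel, a difference of -2.05 ± 0.48 (adjusted p = 0.159).

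The kallikreins Klk10 and Klk11, secreted serine proteases of stratified epithelia, were both among these 15. Klk10 read -0.36, -0.53 and -0.39 in collagen I, against 3.02, 2.93 and 1.39 in Matrigel, a difference of -2.87 ± 0.77 (adjusted p = 0.251), and Klk11 differed by -2.22 ± 0.38 (adjusted p = 0.0725). Klk6, of the same family, was well above background on 2 of the 3 Matrigel arrays. It read -3.71, -3.06 and -3.70 in collagen I, against -4.61, -4.18 and -6.13 in Matrigel, a fitted difference of 1.49 ± 0.68 (adjusted p = 0.553). Angpt2, a ligand of the endothelial receptor Tek, differed by -2.07 ± 0.74 (adjusted p = 0.42), and Prss35, a serine protease homolog, by -2.83 ± 0.58 (adjusted p = 0.113). The other 7 (Clic5, Osbpl1a, Mfsd4a, Lao1, Calm4, Tmem255a and Zfpn1a4) differed by -2.87 to -2.05. The 3 probes of Clic5 gave -2.81, -0.86 and -3.37, so its size depends on the probe. Zfpn1a4 is an old name of Ikzf4, whose RefSeq-matched probe differed by -0.02 ± 0.41.

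Some genes had signal in 1 gel alone. Cx3cr1, the fractalkine receptor of macrophages, read -4.29, -4.79 and -2.83 in collagen I, against -6.17, -7.45 and -8.29 in Matrigel and was not well above background in Matrigel, which makes it at least 4.45-fold higher in collagen I (adjusted p = 0.133). Lce1i, of the cornified envelope, was at least 4.28-fold higher by the same measure (adjusted p = 0.667). BC005655, a synonym of Dcpp1, read -7.10, -7.35 and -6.74 in collagen I, against -5.00, -3.79 and -3.83 in Matrigel, and collagen I arrays gave only background, so that it was at least 4.18-fold lower in that gel (adjusted p = 0.373). The clone A030006P16Rik was at least 4.02-fold higher (adjusted p = 0.0975). The unnamed transcripts AY344585, AK083799 and AK084052 and the olfactory receptor gene Olfr1295 were at least 4.19-fold, 3.75-fold, 2.95-fold and 3.08-fold lower (adjusted p = 0.523 to 0.648). In all, 58 of the 18274 genes were measured on all 3 arrays of 1 gel and on none of the other.

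Ranking by p named further genes. Cp, the copper oxidase ceruloplasmin, read 5.07, 5.03 and 4.68 in collagen I, against 3.20, 3.23 and 3.59 in Matrigel, a difference of 1.59 ± 0.23 (adjusted p = 0.0557). Sync, an intermediate filament partner, read -3.22, -3.28 and -3.36 in collagen I, against -4.49, -4.52 and -4.74 in Matrigel and differed by 1.30 ± 0.19 (adjusted p = 0.0557). For Cp, Sync and Scx each gel's arrays lay close together. Scx, the tendon transcription factor scleraxis, read 3.54, 3.48 and 3.08 in collagen I, against 1.39, 1.91 and 1.96 in Matrigel, with a difference of 1.61 ± 0.25 (adjusted p = 0.0698). Ptger4, a prostaglandin E receptor, differed by 0.96 ± 0.17 (adjusted p = 0.0738), Rapsn, the receptor-clustering protein rapsyn, by 1.34 ± 0.21 (adjusted p = 0.0687), and Apoc2, a cofactor of lipoprotein lipase, by 2.02 ± 0.33 (adjusted p = 0.0701). On the lower side Slc39a10, a zinc importer, read -1.59, -1.69 and -1.50 in collagen I, against -0.70, -0.59 and -0.51 in Matrigel, a difference of -0.997 ± 0.15 (adjusted p = 0.0687). Me1, the NADPH-making malic enzyme, differed by -1.31 ± 0.22 (adjusted p = 0.0701), Dgat2, which completes triglycerides, by -1.34 ± 0.25 (adjusted p = 0.0857), Vldlr, a lipoprotein receptor, by -1.13 ± 0.21 (adjusted p = 0.0857), and St8sia6, a sialyltransferase, by -1.94 ± 0.36 (adjusted p = 0.0857).

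Other large differences rested on mice that did not go together. Creb3l3, a liver and gut transcription factor of lipid metabolism, read -4.66, -0.83 and -0.56 in collagen I, against -5.37, -5.70 and -4.35 in Matrigel. Collagen I mouse A lay among the Matrigel arrays, and the difference of 3.12 ± 0.91 had groups that overlapped (adjusted p = 0.292). Grem1, a secreted BMP antagonist, read -3.67, -1.28 and -1.56 in collagen I, against -3.28, -5.50 and -4.86 in Matrigel (2.38 ± 0.72, adjusted p = 0.334), with collagen I mouse A below Matrigel mouse A. Plin1, the lipid droplet coat of fat cells, read -5.71, -4.85 and -3.42 in collagen I, against -4.84, -2.73 and 0.42 in Matrigel (-2.27 ± 1.15, adjusted p = 0.613). Matrigel mouse D was its highest array. The 5 adipocyte markers tested all had differences below 0, none passed, and their sum was 12 to 22.6 in collagen I and 18.8 to 61 in Matrigel, with mouse D at the top.

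The gene lists below were compiled by function, and none was tested as a set: each is described by how many of its genes had groups that did not overlap, beside 11.5% higher and 10% lower over all genes, and by its median difference, which over all genes was -0.01. Besides the members that ranked highest by size, some were named for their known roles after their values were seen.

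**Figure D3:**
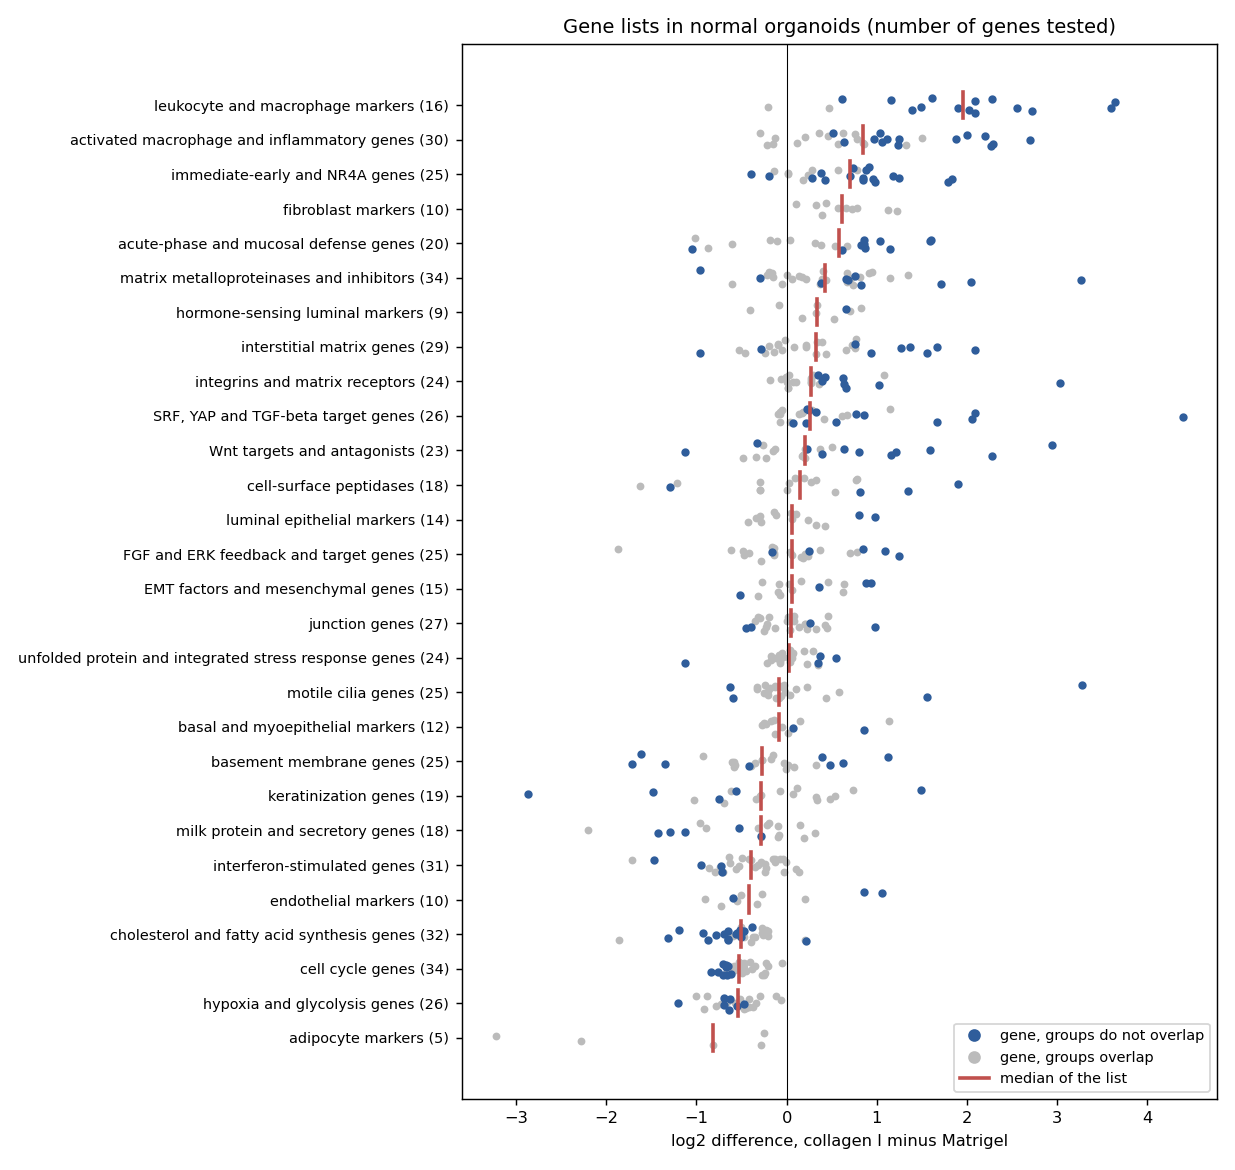
Log2 difference of collagen I minus Matrigel (horizontal) for the genes of 28 lists, with the number tested in brackets; blue points mark groups that do not overlap, grey points groups that do, and red bars the median. Leukocyte markers have the highest median (1.96) and adipocyte markers the lowest (-0.81).

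Of 24 integrins and other matrix receptors, 8 were higher with no overlap and 0 lower, 3 were over 2-fold higher, and none passed. The median difference was 0.27. Itga2, the chain of a collagen-binding integrin, read -4.84, -4.99 and -4.69 in collagen I, against -5.06, -4.78 and -4.90 in Matrigel (0.08 ± 0.30), and its partner chain Itgb1 read 1.95, 2.08 and 1.96 in collagen I, against 1.89, 1.92 and 2.20 in Matrigel (-0.01 ± 0.26). The groups overlapped for both. Ddr1, a collagen receptor kinase, read 4.44, 4.12 and 3.94 in collagen I, against 3.92, 3.57 and 3.72 in Matrigel, a difference of 0.43 ± 0.19 (adjusted p = 0.524), and Itga11, a collagen-binding chain of mesenchymal cells, differed by 0.62 ± 0.40 (adjusted p = 0.732). Itgb6, which releases active TGF-beta with its partner Itgav, read -0.74, -1.18 and -1.47 in collagen I, against -2.41, -1.89 and -2.18 in Matrigel, a difference of 1.03 ± 0.33 (adjusted p = 0.368). Lair1, a collagen receptor of leukocytes, read -3.70, -3.93 and -2.82 in collagen I, against -5.70, -8.56 and -5.29 in Matrigel. It was well above background on 2 of the 3 Matrigel arrays, and the fitted difference was 3.03 ± 0.74 (adjusted p = 0.177).

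Immediate-early genes, which cells transcribe within minutes of a stimulus, came next. Of 25 tested, 15 were higher with no overlap and 2 lower, 1 passed (Nr4a2), and the median difference was 0.70, or 0.47 without Matrigel mouse A. Fos, a subunit of the AP-1 transcription factor, read 0.87, 0.84 and 0.96 in collagen I, against -0.60, -0.82 and -1.27 in Matrigel, a difference of 1.79 ± 0.35 (adjusted p = 0.0915). The collagen I arrays of Fos lay close together and more than 1 log2 unit over the highest Matrigel array. Junb, a partner of Fos, read 6.52, 6.41 and 6.34 in collagen I, against 5.84, 5.07 and 4.82 in Matrigel and differed by 1.18 ± 0.28 (adjusted p = 0.165). Egr1, a zinc finger factor, differed by 1.25 ± 0.30 (adjusted p = 0.18). Nr4a1, close kin of Nr4a2, read 4.47, 4.53 and 4.61 in collagen I, against 3.42, 3.48 and 3.76 in Matrigel, a difference of 0.99 ± 0.20 (adjusted p = 0.102). Ier2 differed by 0.88 ± 0.25 (adjusted p = 0.275), the phosphatase Dusp1 by 0.85 ± 0.31 (adjusted p = 0.437) and the kinase Sik1 by 0.95 ± 0.25 (adjusted p = 0.24). Jun itself ran the other way with no overlap, at 0.63, 0.84 and 0.81 in collagen I, against 1.01, 0.96 and 0.90 in Matrigel (-0.20 ± 0.24, adjusted p = 0.893).

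Many genes of this kind are transcribed through the cAMP response element, whose core is TGACG, and CGTCA on the other strand. The 250 bases before the RefSeq start (build GRCm38.p6) are shown for Nr4a2, Nr4a1 and Fos because all 3 were higher in collagen I with no overlap, with every TGACG or CGTCA in capitals. Nr4a2 lies at chr2:57124004-57124253 (minus strand), Nr4a1 at chr15:101266596-101266845 (plus strand) and Fos at chr12:85473640-85473889 (plus strand).
Nr4a2: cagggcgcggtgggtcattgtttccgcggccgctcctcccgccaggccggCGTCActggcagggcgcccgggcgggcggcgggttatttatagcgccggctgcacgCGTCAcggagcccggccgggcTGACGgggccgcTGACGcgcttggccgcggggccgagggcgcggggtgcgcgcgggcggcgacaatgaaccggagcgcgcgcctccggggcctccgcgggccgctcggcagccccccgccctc
Nr4a1: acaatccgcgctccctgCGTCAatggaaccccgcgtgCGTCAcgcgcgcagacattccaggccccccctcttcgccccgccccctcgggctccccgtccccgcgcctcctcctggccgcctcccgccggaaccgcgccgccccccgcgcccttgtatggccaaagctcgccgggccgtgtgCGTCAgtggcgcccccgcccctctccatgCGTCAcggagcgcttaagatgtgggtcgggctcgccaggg
Fos: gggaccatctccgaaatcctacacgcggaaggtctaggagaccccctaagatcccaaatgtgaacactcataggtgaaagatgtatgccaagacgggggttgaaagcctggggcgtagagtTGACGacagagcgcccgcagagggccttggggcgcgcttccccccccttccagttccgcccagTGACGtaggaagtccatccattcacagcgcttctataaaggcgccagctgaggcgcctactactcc
The windows of Nr4a2 and Nr4a1 hold 4 of these cores each and that of Fos 2. Of all 32851 RefSeq promoter windows of this length, 17.8% hold at least 1, and of the 23 windows of immediate-early genes, 15 do (65.2%). Those 23 windows belong to 18 genes, of which 12 have a core. The longer form TGACGTCA is in 2 of the 23 windows (8.7%) and in 1.55% of all windows. The letters are a description and show no binding.

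Targets of SRF, YAP and TGF-beta, which respond to actin tension and matrix stiffness, were tested as 26 genes. In collagen I 12 were higher with no overlap and 0 lower, none passed, and the median difference was 0.26. Ccn1, a matricellular protein and YAP target, read 3.57, 3.79 and 3.59 in collagen I, against 1.91, 1.41 and 1.38 in Matrigel, a difference of 2.08 ± 0.35 (adjusted p = 0.0707). Ccn2, its close relative, read 5.56, 5.34 and 5.13 in collagen I, against 3.33, 4.06 and 3.64 in Matrigel, a difference of 1.66 ± 0.35 (adjusted p = 0.123). The collagen I arrays lay over 1 log2 unit above the highest Matrigel array for both genes. Inhba, a chain of the ligand activin A, read 2.04, 2.34 and 2.16 in collagen I, against 0.61, 0.38 and -0.62 in Matrigel, a difference of 2.06 ± 0.56 (adjusted p = 0.255). Contractile genes of the same list differed less or less evenly: Acta2, smooth muscle actin, read 4.34, 4.39 and 4.39 in collagen I, against 4.32, 4.32 and 4.29 in Matrigel (0.07 ± 0.17, adjusted p = 0.96), and Tagln differed by 0.86 ± 0.71 (adjusted p = 0.82).

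TEAD factors, the DNA-binding partners of YAP, read GGAATG, or CATTCC on the other strand. The windows of Ccn1 at chr3:145649986-145650235 (minus strand) and Ankrd1 at chr19:36119845-36120094 (minus strand) are shown, with those letters in capitals, since these were the YAP targets with the largest differences.
Ccn1: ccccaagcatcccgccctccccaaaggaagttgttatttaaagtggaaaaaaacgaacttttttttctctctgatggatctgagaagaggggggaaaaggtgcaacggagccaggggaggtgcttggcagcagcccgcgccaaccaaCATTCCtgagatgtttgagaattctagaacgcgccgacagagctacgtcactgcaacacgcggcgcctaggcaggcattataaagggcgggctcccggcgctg
Ankrd1: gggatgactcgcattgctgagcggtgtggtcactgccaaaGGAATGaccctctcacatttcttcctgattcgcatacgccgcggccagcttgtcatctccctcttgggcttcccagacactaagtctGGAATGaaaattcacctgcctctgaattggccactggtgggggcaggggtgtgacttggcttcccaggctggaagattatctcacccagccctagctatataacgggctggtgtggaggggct
Ccn1 holds 1 match and Ankrd1 holds 2. At least 1 match was found in 12.6% of the 32851 windows and in 9 of the 18 windows of this list (50%). Those 18 windows belong to 17 genes, of which 9 have a match.

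Among 29 interstitial matrix genes 7 were higher with no overlap and 2 lower, with none past the threshold and a median of 0.33, which was -0.09 without Matrigel mouse A and -0.14 with the slide as a fixed block. Tnc, tenascin C, read 0.68, 1.22 and 0.87 in collagen I, against -0.46, -0.79 and -0.66 in Matrigel, a difference of 1.56 ± 0.34 (adjusted p = 0.133), and Fn1, fibronectin, differed by 0.94 ± 0.31 (adjusted p = 0.373). Col12a1, a collagen that coats fibrils, differed by 1.26 ± 0.46 (adjusted p = 0.436), while Col14a1, which does the same, read 0.40, 0.15 and 0.82 in collagen I, against 1.25, 1.57 and 1.41 in Matrigel, a difference of -0.96 ± 0.22 (adjusted p = 0.149). The fibroblast markers, of which 5 stand on this list too, all had differences above 0, with 0 of 10 free of overlap. Their median of 0.61 was 0.24 without Matrigel mouse A and 1.43 without Matrigel mouse D. Within slides the direction was not the same: the fibroblast median was -1.51 on slide 3 and 1.98 on slide 6. The interstitial matrix median was -1.27 on slide 3 and 0.94 on slide 6.

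Of 34 metalloproteinases, other matrix proteases and inhibitors, 8 were higher with no overlap and 2 lower, with none past the threshold and a median of 0.42. Besides Mmp13, Adamts5, which cuts the proteoglycan aggrecan, read 0.12, 0.28 and -0.47 in collagen I, against -2.26, -1.65 and -1.31 in Matrigel, a difference of 1.71 ± 0.32 (adjusted p = 0.0857). Mmp10, a stromelysin, differed by 2.05 ± 0.67 (adjusted p = 0.372). Mmp14, the membrane-bound collagenase, read 5.41, 5.48 and 5.72 in collagen I, against 4.98, 4.49 and 4.65 in Matrigel, a difference of 0.83 ± 0.22 (adjusted p = 0.25), and Timp2, which binds it, read 5.66, 5.74 and 5.52 in collagen I, against 4.76, 5.07 and 5.12 in Matrigel, a difference of 0.66 ± 0.24 (adjusted p = 0.436). Adamts9 lay lower, by -0.96 ± 0.28 (adjusted p = 0.294), but its dimmer probes gave 0.03 and -0.55. Among 18 surface peptidases 3 were higher and 1 lower with no overlap, Mme passed, and the median was 0.15. Dpp4, a dipeptidyl peptidase, was the 1 lower without overlap, at -4.53, -5.24 and -4.92 in collagen I, against -3.46, -3.09 and -4.27 in Matrigel (-1.29 ± 0.60, adjusted p = 0.568). Cpe, which trims prohormones, read 2.72, 2.90 and 2.32 in collagen I, against 1.10, 1.83 and 0.97 in Matrigel, a difference of 1.35 ± 0.30 (adjusted p = 0.133). Anpep, aminopeptidase N, differed by 0.81 ± 0.23 (adjusted p = 0.275).

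Basement membrane genes pointed both ways. Of 25 tested, 4 were higher and 4 lower with no overlap, none passed, and the median was -0.28. Lama1, a laminin chain that Matrigel itself is rich in, read -2.99, -2.28 and -1.67 in collagen I, against -0.70, -0.65 and -0.74 in Matrigel, a difference of -1.61 ± 0.46 (adjusted p = 0.275). Batch 1 gave -2.95 and -2.05 for Matrigel mice A and B, below the batch 2 arrays of the same mice and within or near the collagen I range. Nid2, a nidogen, differed by -1.34 ± 0.65 (adjusted p = 0.586) and Smoc2 by -1.71 ± 0.55 (adjusted p = 0.368), while Smoc1, its relative, differed by 1.12 ± 0.39 (adjusted p = 0.407).

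Lef1 belongs to the Wnt list: of 23 tested, 9 were higher with no overlap and 2 lower, with none past the threshold and a median of 0.21, which was -0.01 without Matrigel mouse D. Wnt7b, a ligand, read 0.25, 0.36 and -0.15 in collagen I, against -1.12, -0.88 and -1.18 in Matrigel, a difference of 1.21 ± 0.30 (adjusted p = 0.188). Sfrp2, a secreted modulator, read -0.33, -0.46 and -0.81 in collagen I, against -2.41, -1.78 and -2.18 in Matrigel, a difference of 1.59 ± 0.28 (adjusted p = 0.0753), and Dkk2, an antagonist, was not well above background in Matrigel and at least 2.48-fold higher in collagen I (adjusted p = 0.0857). Wif1, another antagonist, ran the other way, at -1.25, -1.02 and -0.98 in collagen I, against 0.19, 0.01 and -0.07 in Matrigel (-1.13 ± 0.43, adjusted p = 0.451). Feedback genes of FGF and ERK, the pathway that FGF2 in the medium feeds, had a median of 0.06, with 4 of 25 higher and 1 lower with no overlap. Hbegf, an EGF receptor ligand, read -0.52, -0.38 and -0.87 in collagen I, against -1.57, -1.81 and -1.65 in Matrigel, a difference of 1.09 ± 0.41 (adjusted p = 0.444).

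The leukocyte list had the highest median. Of 16 tested, 14 were higher with no overlap and 0 lower, 14 were higher at an unadjusted p under 0.05, against 5.78% of all genes, none passed, and the median was 1.96. That median was 1.18 without Matrigel mouse B and 1.20 with normexp background correction. Adgre1 (a surface antigen of mouse macrophages) read -1.97, -1.96 and -1.10 in collagen I, against -3.57, -6.54 and -2.57 in Matrigel. Csf1r, the receptor of a macrophage growth factor, read -2.72, -2.50 and -1.85 in collagen I, against -3.62, -5.14 and -3.15 in Matrigel. Ptprc (CD45, on all leukocytes) read -3.92, -3.32 and -2.79 in collagen I, against -4.36, -7.80 and -4.13 in Matrigel. Adgre1 and Ptprc were well above background on 2 of the 3 Matrigel arrays. The list's median difference was 1.15 within mouse A and 3.18 within mouse B, and 0.61 on slide 3 and 3.79 on slide 6. Cd3e and Cd79a, of T and B cells, had overlapping groups. The part of these cells in the differences of the inflammatory genes was not tested.

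**Figure D4:**
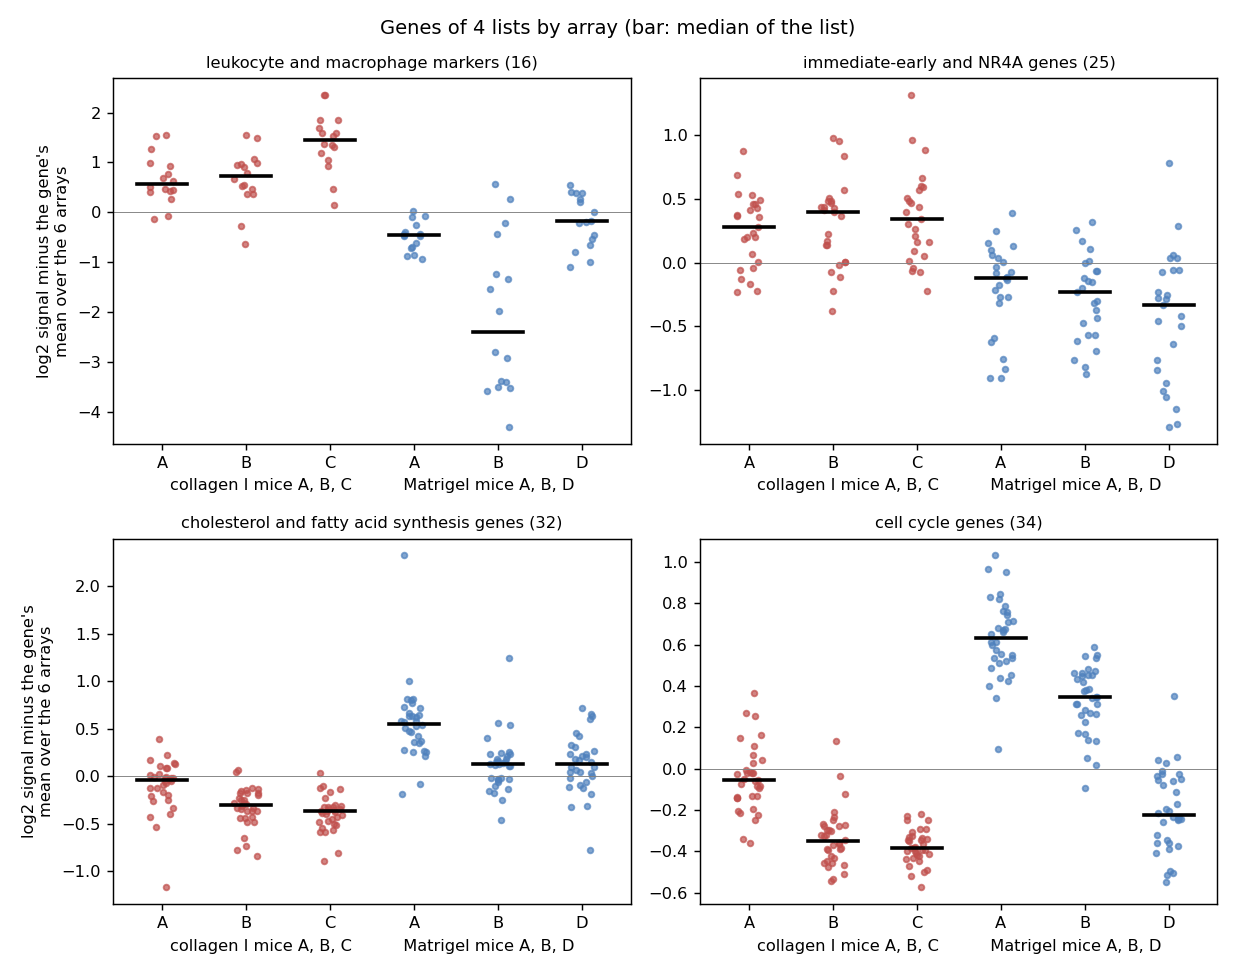
Log2 signal minus each gene's mean over the 6 arrays (vertical) by array (horizontal), with collagen I mice A, B and C left of Matrigel mice A, B and D, for 4 lists; bars are medians. Leukocyte markers are lowest in Matrigel mouse B, while cell cycle genes are highest in Matrigel mouse A and near the collagen I arrays in Matrigel mouse D.

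Inflammatory genes stood beside them: 14 of 30 were higher with no overlap and 0 lower, 1 passed (Irg1), and the median was 0.85, or 0.50 with normexp. Ccl7, a monocyte chemokine, read -0.55, 0.41 and 0.37 in collagen I, against -1.72, -2.72 and -1.35 in Matrigel, a difference of 2.00 ± 0.41 (adjusted p = 0.106). Il6 differed by 1.88 ± 0.70 (adjusted p = 0.444). Csf3, the granulocyte growth factor, read -1.84, -1.97 and -2.15 in collagen I, against -3.11, -3.31 and -2.73 in Matrigel, a difference of 1.06 ± 0.24 (adjusted p = 0.133), and Cxcl5, a neutrophil chemokine, differed by 1.04 ± 0.28 (adjusted p = 0.255). Of 20 acute-phase and mucosal defense genes, 9 were higher and 1 lower with no overlap, none passed, and the median was 0.58. It was 0.02 with normexp and 0.27 without Matrigel mouse D. C3, a complement protein, read 4.59, 4.54 and 4.18 in collagen I, against 3.75, 3.17 and 3.29 in Matrigel, a difference of 1.03 ± 0.24 (adjusted p = 0.15). Hp, haptoglobin, differed by 1.60 ± 0.39 (adjusted p = 0.177) and Lbp, which binds bacterial lipopolysaccharide, by 1.15 ± 0.38 (adjusted p = 0.373). Of the 6 members with differences below 0, Ltf, lactoferrin of milk, was the 1 without overlap, at -1.05 ± 0.76 (adjusted p = 0.783).

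Of 32 genes of sterol and fatty acid synthesis tested, 16 were lower with no overlap and 1 higher, none passed, and the median was -0.51, or -0.26 with the batch 1 arrays of Matrigel mice A and B and -0.25 with the slide as a fixed block. Idi1, of the isoprenoid pathway, read 2.85, 2.28 and 2.25 in collagen I, against 3.59, 3.59 and 3.77 in Matrigel, a difference of -1.19 ± 0.22 (adjusted p = 0.0857). Cyp51, a demethylase of cholesterol synthesis, read 0.07, 0.13 and -0.09 in collagen I, against 1.03, 0.89 and 0.95 in Matrigel, a difference of -0.92 ± 0.29 (adjusted p = 0.36). Batch 1 gave -0.21 and 0.15 for Cyp51 in Matrigel mice A and B, close to the collagen I arrays. Hmgcs1, at the pathway's start, differed by -0.65 ± 0.26 (adjusted p = 0.491) and Fasn, fatty acid synthase, by -0.56 ± 0.35 (adjusted p = 0.725).

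All 34 cell cycle genes tested had differences below 0, 9 were lower with no overlap and 0 higher, none passed, and the median was -0.52, or -0.34 without Matrigel mouse A and -0.82 without Matrigel mouse D. Mki67, a proliferation marker, read 3.56, 3.11 and 3.29 in collagen I, against 4.17, 4.12 and 3.68 in Matrigel, a difference of -0.67 ± 0.40 (adjusted p = 0.705). Mcm2, a replication helicase subunit, read 1.16, 1.11 and 0.97 in collagen I, against 2.01, 1.84 and 1.37 in Matrigel and differed by -0.66 ± 0.29 (adjusted p = 0.543). Matrigel mouse A was the highest array and Matrigel mouse D the nearest to collagen I for both. On slide 3, which holds mouse D, the list's median difference was 0.11, and on slide 6 it was -0.75. Hypoxia and glycolysis genes all had differences below 0 as well, with 7 of 26 lower with no overlap, 0 higher, none past the threshold and a median of -0.54. Without Matrigel mouse A that median was -0.06 and without Matrigel mouse D -0.92, and it was 0.34 on slide 3 and -0.51 on slide 6. Egln3, an oxygen sensor, read 2.31, 1.99 and 1.72 in collagen I, against 4.50, 2.64 and 2.51 in Matrigel, a difference of -1.21 ± 0.48 (adjusted p = 0.48), with Matrigel mouse A apart from mice B and D. Among 31 interferon-stimulated genes 4 were lower and 0 higher with no overlap, and the median was -0.39, or 0.05 with the slide as a fixed block and -0.12 without collagen I mouse B. Mx1, an antiviral GTPase, differed by -1.47 ± 0.61 (adjusted p = 0.51).

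Genes of epithelial identity came last. The hormone-sensing luminal list had 1 of 9 higher with no overlap (median 0.33, and 0.13 without Matrigel mouse D). Its median was -0.06 within mouse A and -0.24 within mouse B. With the mouse as a fixed block it was 0.005, and with the slide as a fixed block 0.97. The luminal list had 2 of 14 higher with no overlap (median 0.06), and the basal list 2 of 12 (median -0.09). Krt8, a luminal keratin, read 7.98, 7.79 and 7.75 in collagen I, against 8.30, 7.88 and 7.78 in Matrigel, and Epcam 4.54, 4.20 and 4.09 in collagen I, against 4.18, 4.16 and 4.31 in Matrigel, with overlap in both. Prom1, a luminal surface protein, was 1 of those without overlap, at 0.32, 0.32 and 0.10 in collagen I, against -0.32, -0.52 and -0.84 in Matrigel (0.81 ± 0.19, adjusted p = 0.165). Krt14, a basal keratin, read 6.31, 6.44 and 6.20 in collagen I, against 7.43, 6.63 and 4.45 in Matrigel. The Matrigel arrays of Krt14 spanned almost 3 log2 units, on both sides of the collagen I arrays. Of 19 keratinization genes 1 was higher and 4 lower with no overlap (median -0.28, 0.00 without Matrigel mouse A and -0.01 without Matrigel mouse B). Among them Krt15, a keratin of basal cells, read -0.03, -0.21 and -0.04 in collagen I, against 2.11, 1.93 and 0.12 in Matrigel, a difference of -1.48 ± 0.58 (adjusted p = 0.47). Among 18 milk and secretory genes, 5 were lower and 0 higher with no overlap (median -0.29), with Lalba, which makes lactose, at 3.13, 2.57 and 3.03 in collagen I, against 3.72, 4.54 and 4.75 in Matrigel (-1.43 ± 0.84, adjusted p = 0.695). Junction genes (median 0.05), EMT factors (0.06) and stress response genes (0.03) centred near 0, with 2, 3 and 3 higher and 2, 1 and 1 lower with no overlap.

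Foxj1 was set beside other cilia genes, many of which it controls. Of 39 motile cilia genes listed, only 25 could be tested. Among these 25, 2 were higher and 2 lower with no overlap, Foxj1 alone passed, and the median was -0.09. Rfx3, another transcription factor of cilia, was well above background on 2 of the 3 Matrigel arrays and differed by 1.55 ± 0.50 (adjusted p = 0.368). Its other probe gave 0.41, so its size depends on the probe. Tekt2, a protein of the ciliary shaft, read -1.17, -0.91 and -0.83 in collagen I, against -0.95, -1.39 and -2.29 in Matrigel (0.58 ± 0.37, adjusted p = 0.727), and Tubb4b, a tubulin of cilia, differed by -0.59 ± 0.21 (adjusted p = 0.407).

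In tumor organoids the same gels differed at many more genes: 5089 passed (27.8%), 2883 higher in collagen I (15.8%) and 2206 lower (12.1%). The tumor gels also differed in signal before scaling. The 75th percentile was 383 to 570 on the tumor Matrigel arrays and 691 to 812 on the tumor collagen I arrays. In normal organoids it was 671 to 1098 in Matrigel and 971 to 1216 in collagen I. The part of this signal in the tumor and tissue counts was not tested. The difference between the tissues was tested as such, and 481 genes (2.63%) passed, 6 of them among the 8 genes of the normal comparison. The normal arrays that picked these 8 genes also enter this test. The count of 6 and the gaps of these genes are therefore not independent of that choice. Leaving out 1 array gave 2744 to 5413 genes in tumor organoids, with 2744 without tumor collagen I mouse A and 2895 without tumor Matrigel mouse B. Normal mice A and B and tumor mice A, B and C gave arrays in both gels. With the mouse as a fixed block the test of the difference gave 0 genes (3786 at an unadjusted p under 0.05, limma), so the gaps below have no call in that fit. It gave 1712 with the mouse as a random block, 1348 with the slide as a fixed block and 10 with normexp. Leaving out 1 array gave 12 to 2086 for the difference between the tissues, with 12 without collagen I mouse B and 2086 without Matrigel mouse A of the normal arrays. Foxj1 differed by 3.28 ± 0.35 in normal and by 1.05 ± 0.35 in tumor organoids, and the normal effect was larger by 2.22 ± 0.50 (adjusted p = 0.047). For Mme the tumor difference was 0.29 ± 0.21 and the normal effect larger by 1.61 ± 0.30 (adjusted p = 0.0332), and for Nr4a2 it was 0.38 ± 0.23, with the normal effect larger by 1.46 ± 0.33 (adjusted p = 0.047). Irg1 rose in both, by 2.43 ± 0.33 in tumor organoids, and the effects differed by 0.27 ± 0.47 (adjusted p = 0.759).

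Several genes that did not pass in normal organoids had opposite signs in the tissues. Lef1 differed by 2.28 ± 0.43 in normal and -1.02 ± 0.43 in tumor organoids, a gap of 3.29 ± 0.60 (adjusted p = 0.0324). Csf3 differed by 1.06 ± 0.24 and -3.21 ± 0.24 (4.27 ± 0.33, adjusted p = 0.000677), Junb by 1.18 ± 0.28 and -0.65 ± 0.28 (1.83 ± 0.40, adjusted p = 0.0443), and Nr4a1 by 0.99 ± 0.20 and -0.30 ± 0.20 (1.28 ± 0.28, adjusted p = 0.0443). On the lower side, Idi1 differed by -1.19 ± 0.22 in normal and 1.47 ± 0.22 in tumor organoids (-2.66 ± 0.32, adjusted p = 0.00816). Mmp13 differed by 3.26 ± 0.70 in normal and 3.06 ± 0.70 in tumor organoids, and their gap was 0.20 ± 0.99 (adjusted p = 0.921).

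**Figure D5:**
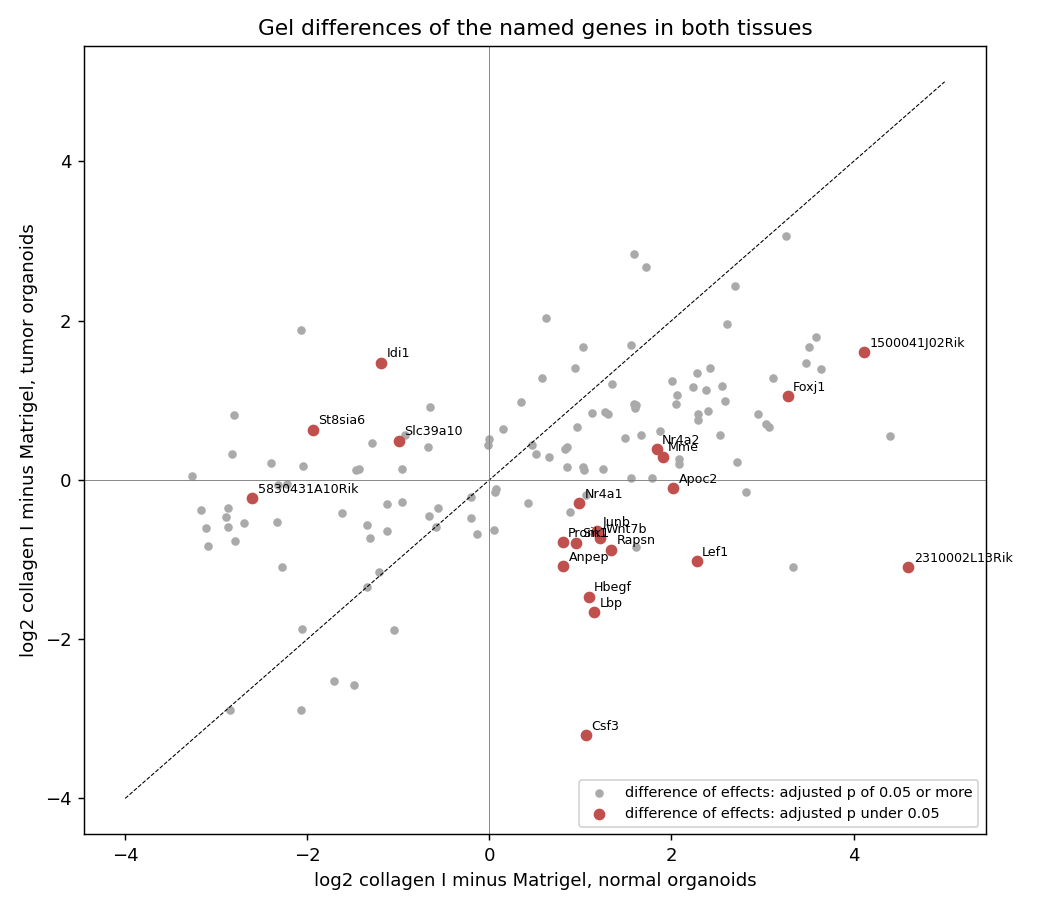
Log2 difference of collagen I minus Matrigel in normal (horizontal) and tumor organoids (vertical) for the genes named; red points have a difference of effects with adjusted p under 0.05, and the dashed line marks equal effects. Foxj1, Mme and Nr4a2 lie right of the line, and Idi1 left of it.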

How the data were processed

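Total RNA was amplified, labeled with Cy3 and hybridised to single-colour Agilent mouse arrays, per the labels' protocols. Spot intensity was extracted by the authors with Agilent Feature Extraction, version 9.1 per the submitters' processing notes and 9.5.1.1 per the file headers. The deposited processed intensity, already background-subtracted per the file headers, was set relative to each array's 75th percentile and taken to log2. The authors' deposited log2 table served as an alternative.

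Control spots and outlier flags were left out, probes had to be well above background on all arrays of at least 1 group, and the brightest probe stood for a gene, which left 26606 probes and 18274 genes. Of the probes, 55.7% were named through RefSeq accessions and the others by the file. Group means over the 12 batch 2 arrays were fitted with limma 3.58.1 in R 4.3.3 (8 residual and 2.75 prior degrees of freedom), with Benjamini-Hochberg adjustment and a threshold of 0.05. Replicates were separate mice. The main fit had no block. Mice A and B stand in both gels, and the deviations of their arrays from the group means correlated at 0.24 and -0.24.

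The comparison and the 28 gene lists were chosen with earlier results of these data known. Genes were named by this rule: all past the threshold, the 15 largest per direction without overlap, the 5 largest bounds per direction, the 8 smallest p and the 5 largest overlapping differences per direction, and per list up to 4 members without overlap and the brightest. Names of the last 3 kinds were left out in part, among them all 14 of the rule's genes that changed sign under an alternative. The members C3, Ccl7, Cd3e, Cd79a, Col12a1, Col14a1, Csf1r, Csf3, Cxcl5, Ddr1, Dusp1, Epcam, Fasn, Hmgcs1, Ier2, Il6, Itga11, Itga2, Itgb1, Jun, Krt14, Krt8, Mcm2, Mki67, Mmp14, Nr4a1, Ptprc, Sik1, Tekt2, Timp2 and Wif1 were added for their roles after their values were seen. The fit was tested on simulated data. Promoters came from RefSeq (GRCm38.p6).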

Additional observations from a re-analysis of the deposited data

Results flagged for a closer look

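The gel effect differed between normal and tumor organoids for 481 of the 18274 genes by limma's test of the difference itself (adjusted p under 0.05). Among the genes described, the excess of the normal effect over the tumor effect on the log2 scale was as follows. Among the genes that passed in normal organoids, it was 2.22 ± 0.50 for Foxj1, 1.61 ± 0.30 for Mme, 1.46 ± 0.33 for Nr4a2, 2.51 ± 0.52 for 1500041J02Rik and 5.70 ± 0.64 for 2310002L13Rik, and -2.37 ± 0.38 for 5830431A10Rik. The clone probes 1500041J02Rik, 2310002L13Rik and 5830431A10Rik were not well above background in 1 gel of the normal organoids, so their values here are fitted and no bound.

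Signals, growth factors and transcription factors with a gap were Csf3 (4.27 ± 0.33), Lef1 (3.29 ± 0.60), Hbegf (2.56 ± 0.57), Wnt7b (1.94 ± 0.43), Junb (1.83 ± 0.40), Sik1 (1.74 ± 0.36) and Nr4a1 (1.28 ± 0.28). Csf3 differed by 1.06 ± 0.24 in normal and -3.21 ± 0.24 in tumor organoids, and Hbegf by 1.09 ± 0.41 and -1.46 ± 0.41. Surface and secreted proteins with a gap were Lbp (2.81 ± 0.53), Apoc2 (2.12 ± 0.47), Anpep (1.90 ± 0.33), Prom1 (1.59 ± 0.27) and the clustering protein Rapsn (2.22 ± 0.30). Genes with fitted differences below 0 in normal and above 0 in tumor organoids were Idi1 (-2.66 ± 0.32), St8sia6 (-2.57 ± 0.52) and Slc39a10 (-1.49 ± 0.22). No sample-outlier test was made, since each group holds 3 arrays.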

How the results depend on the processing

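The number of genes past the threshold in normal organoids, 8, moved with most choices. It was 17 with quantile normalization, 4 with normexp background correction, 87 with both, 3 with the 6 normal arrays fitted alone, 69 with the batch 1 arrays for Matrigel mice A and B, 13 with both batches averaged, 51 with the slide as a random block, 16 with trended robust variances and 1686 with array quality weights. Leaving out 1 array gave 4 to 23. Of the normal arrays, those of mouse B had the largest quality weight in each gel. The share higher in collagen I was 87.5%, against 76.5% with quantile normalization, 69% with normexp and quantile normalization, 100% with normexp and 75% in the authors' values. Without a filter on dim probes, with probes well above background on all 12 arrays and with the mean of a gene's probes the count was 11, 11 and 12, with 8, 5 and 8 of the 8 genes among them. With the mouse as a fixed replicate block the count was 0 and as a random replicate block 71, including all 8, and with the slide as a fixed block it was 0, by limma, with 1659 and 1874 genes at an unadjusted p under 0.05 in the fixed blocks. The fixed blocks leave fewer residual degrees of freedom. In tumor organoids the count of 5089 became 1238 with normexp and 2654 with the slide as a fixed block, and 2744 to 5413 with 1 array left out.

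The count of genes whose gel effect differed between the tissues, 481, became 201 with quantile normalization, 10 with normexp, 240 with both, 142 in the authors' values, 59 without the filter on dim probes, 3032 with the batch 1 arrays, 2222 with both batches averaged, 0 with the mouse as a fixed replicate block (3786 at an unadjusted p under 0.05, limma), 1712 as a random replicate block, 1348 and 1672 with the slide as a fixed or random block, 1001 with trended robust variances, 3440 with array quality weights, and 12 to 2086 with 1 array left out. The cause of these shifts was not tested.

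Of 3907 values for 136 named genes under the alternatives, 3585 kept direction and side of the threshold, 233 passed in place of missing it, 50 no longer passed and 39 changed sign. The changes of sign concern 8 genes whose differences did not pass. Itgb1 (-0.00871) was 0.11 in the authors' values, 0.39 with batch 1 for Matrigel A and B, 0.19 with both batches averaged, 0.11 with mouse as a fixed replicate block, 0.00825 with mouse as a random replicate block, 0.0426 with array quality weights and -0.0642 to 0.0901 with 1 array left out. Itga2 (0.0752) was -0.10 with normexp, -0.0445 in the authors' values, -0.30 with batch 1 for Matrigel A and B, -0.11 with both batches averaged, -0.000355 with slide as a fixed block, -0.0513 with array quality weights and -0.000378 to 0.15 with 1 array left out. Krt8 (-0.14) was 0.0726 with quantile normalization, 0.0801 with normexp and quantile normalization, 0.17 in the authors' values, 0.0913 with batch 1 for Matrigel A and B, 0.0982 with slide as a fixed block and -0.24 to 0.015 with 1 array left out. Epcam (0.0538) was -0.0778 to 0.15 with 1 array left out. Krt14 (0.15) was -0.66 with mouse as a fixed replicate block and -0.71 to 0.78 with 1 array left out. Cd3e (-0.21) was 0.0577 with batch 1 for Matrigel A and B and -0.49 to 0.0615 with 1 array left out. Cd79a (0.47) was -0.0685 with normexp and -0.089 with mouse as a fixed replicate block. Ikzf4 (-0.0197) was 0.0496 in the authors' values, 0.36 with batch 1 for Matrigel A and B, 0.17 with both batches averaged, 0.52 with slide as a fixed block, 0.0887 with slide as a random block and -0.32 to 0.26 with 1 array left out. The naming rule gave 171 genes, and 14 of them that changed sign under some alternative are not described in the text: Col1a2, Gata3, Ifi27, Itga6, Klf2, Krt18, Krt5, Lss, Mfge8, Nupr1, Spp1, Sprr2a1, Tap1 and Vim, with main differences between -0.87 and 0.43. These 14 are all of the rule's genes that changed sign. Their values are not among the 3907, so the counts above leave out their changes of sign. Names updated through RefSeq synonyms, an alternative chosen after seeing the data, gave 7 genes, since 1500041J02Rik then took the probe of Coq10b (0.51, adjusted p = 0.425). Signal over background limits the dim genes: 58 of 18274 had only a bound in 1 gel.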
